A study of Homo sapiens with 9 samples.

Results

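The 8 genes described here encode enzymes that make pyrimidine nucleotides or recover them from nucleosides, and each was knocked out in a pooled CRISPR screen of RH4 cells. They were chosen by name from the kinome library, as CAD, DTYMK, CMPK1, UCK1, UCK2, TK1, TK2 and DCK. The rule uses no measured value, but the choice was made with earlier results of these data known. They are 8 of the 763 genes targeted, and 32 of the 3152 single guide RNAs (sgRNAs) in the table were directed against them, 4 for each gene. RH4 is a human rhabdomyosarcoma line that carries the PAX3::FOXO1 fusion, and all cells of all groups carried the fusion, Cas9 and the Brunello kinome library. Cells were infected at a coverage of 1000 cells per sgRNA and selected with puromycin (0.25 µg/ml) over 72 h, starting 48 h after infection. The pralatrexate group then recovered for 72 h and grew in 1.5 nM pralatrexate for 10 days, with a passage every 4 days. The vehicle group had the same recovery and 10 days in vehicle, and the baseline group was harvested at the end of selection, before recovery. Each group had 3 libraries of sgRNA cassettes amplified from genomic DNA, so a read share follows the share of cells that carry an sgRNA and says nothing of RNA or protein.

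Cells obtain thymidine monophosphate (dTMP) by 2 routes. Thymidylate synthase makes it from dUMP and in doing so consumes a folate that dihydrofolate reductase, the target of pralatrexate, must restore, whereas thymidine kinases make it from thymidine. DTYMK phosphorylates dTMP from either route to dTDP, which leads to the dTTP used in DNA. Upstream, CAD carries out the first steps of de novo pyrimidine synthesis, which ends in UMP. CMPK1 phosphorylates UMP and CMP to their diphosphates, and UCK1 and UCK2 make the same monophosphates from uridine and cytidine. TK1 phosphorylates thymidine in the cytosol, TK2 phosphorylates thymidine and deoxycytidine in mitochondria, and DCK phosphorylates deoxycytidine and some purine deoxynucleosides. CAD is not itself a nucleoside kinase.

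Libraries held 2468136 to 4602712 reads, or 1218.7 ± 221 reads per sgRNA (SD, n = 9 libraries). Between libraries of a group the coefficient of variation was 13.2%. All 32 sgRNAs of the 8 genes passed the minimum mean of 30 reads, and 3145 sgRNAs were tested, 99 of them non-targeting. From baseline onward the non-targeting sgRNAs were higher than the average sgRNA, with a median log2 fold change of 0.34 in pralatrexate and 0.31 in vehicle, whereas the median of all genes was 0.01 and 0.02 in these comparisons. Between pralatrexate and vehicle the medians were −0.00 for non-targeting sgRNAs and 0.01 for all genes. The labels number the libraries as repeats, and the study calls them both parallel cultures and technical replicates. The spread behind each p-value of an sgRNA, of summed reads or of a gene level is that of these libraries. That spread may be technical in part or whole. The gene p-values of the rank aggregation, described below, come from the ranks of a gene's sgRNAs among all sgRNAs. They measure how far these sgRNAs agree, and the sgRNAs are not replicates of a condition.

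By day 10 in vehicle, sgRNAs against CAD and DTYMK had fallen below their share at baseline, those against CMPK1 and UCK1 averaged −1.28 and −0.36 on the log2 scale without passing the test, and those against UCK2, TK1, TK2 and DCK averaged between −0.11 and 0.13. In the rank aggregation, which ranks all sgRNAs by their edgeR p-value and scores each gene by the ranks of its own, 2 of the 8 genes passed a false discovery rate (FDR) of 0.05 as lower in vehicle than at baseline, against 6.68% of all 763 genes. No member was called higher, against 0.393% of all genes, and none had an unadjusted p under 0.05 in that direction, against 7.86%. Of the 32 sgRNAs, 11 passed by themselves as lower in edgeR, against 12.8% of all sgRNAs tested, and 0 passed as higher, against 6.26%. The vehicle libraries lay below all baseline libraries in 4 of the 8 gene levels, those of CAD, DTYMK, CMPK1 and UCK1, against 24.4% of all genes. The 8 gene values had a median of −0.24 on the log2 scale, beside 0.02 for all genes.

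With pralatrexate the same 2 genes, CAD and DTYMK, passed as lower than at baseline, against 7.21% of all genes, and 0 passed as higher, against 0.262%, or against 8.78% at an unadjusted p of 0.05, where the members also numbered 0. Of the 32 sgRNAs, 11 were called lower, against 13.1% of all sgRNAs, and 0 higher, against 5.98%. Levels of the same 4 genes lay apart from baseline, against 25.6% of all genes, and the 8 genes had a median of −0.17. The comparisons with baseline share its 3 libraries. Between pralatrexate and vehicle no member passed in either direction of the rank aggregation, where 0.524% of all genes passed as lower and 0 genes passed as higher. At an unadjusted p of 0.05, CAD and DTYMK stood in the higher direction, against 5.37% of all genes, and TK1 in the lower, against 3.93%. No member sgRNA passed in edgeR, where 0.0318% of all sgRNAs passed as lower and 0 as higher, and 0 lower and 4 higher of the 32 had an unadjusted p under 0.05, against 2.99% and 2.61% of all sgRNAs.

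**Figure D1:**
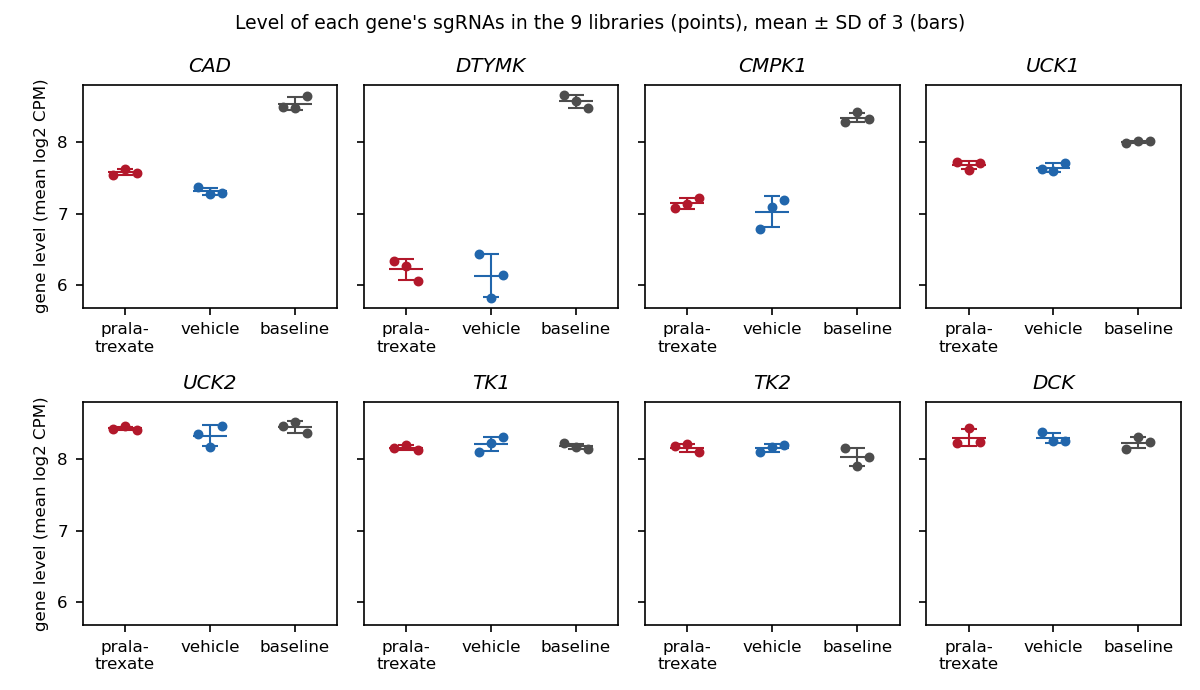
Gene level, the mean log2 CPM of a gene's 4 sgRNAs, in each of the 9 libraries (points) with the mean and SD of the 3 libraries of each group (bars). DTYMK averaged 6.22 with pralatrexate, 6.13 with vehicle and 8.57 at baseline, while TK1 averaged 8.17, 8.22 and 8.18 in the same groups.

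CAD, the enzyme that opens the de novo route, spans chromosome 2, 27217369 to 27243943, on the plus strand of GRCh38. Its level, the mean log2 CPM (reads scaled to library size) over its 4 sgRNAs, was 7.55, 7.63 and 7.57 in the pralatrexate libraries, 7.37, 7.28 and 7.29 in the vehicle libraries and 8.49, 8.48 and 8.64 at baseline. The 3 groups did not overlap, with vehicle lowest and pralatrexate between vehicle and baseline. CAD fell by 1.23 ± 0.66 in vehicle against baseline on the log2 scale (SD over 4 sgRNAs; edgeR with rank aggregation, FDR 0.00495), to 0.427 of baseline, with 4 of 4 sgRNAs lower. With pralatrexate it fell by 0.96 ± 0.57 against baseline (FDR 0.0287), to 0.515 of baseline, again with 4 of 4 sgRNAs lower. Relative to the median of the non-targeting sgRNAs these differences were −1.54 for vehicle and −1.29 for pralatrexate.

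The CAD sgRNAs differed among themselves. The first stood at 127, 168 and 168 CPM with pralatrexate, 104, 114 and 109.7 CPM with vehicle and 362, 359.6 and 409.5 CPM at baseline. The second stood at 463, 362 and 371 CPM with pralatrexate, 265, 289 and 331 CPM with vehicle and 659.9, 664 and 671 CPM at baseline. In both, all pralatrexate libraries lay above all vehicle libraries and below all baseline libraries. The fourth stood at 104, 116 and 121 CPM with pralatrexate, 122, 95.4 and 103 CPM with vehicle and 356, 299.99 and 339.8 CPM at baseline, so that the day 10 groups overlapped and lay below baseline. The third stood at 195, 216 and 169 CPM with pralatrexate, 218, 182 and 159 CPM with vehicle and 198, 226 and 272 CPM at baseline, and its groups overlapped. In vehicle against baseline the 4 log2 fold changes were −1.78, −1.17, −0.32 and −1.64 in the order of the table, and 3 of them passed by themselves, the third not (edgeR, FDR 0.212). Without its strongest sgRNA the gene was at −1.04 for vehicle against baseline (FDR 0.0495), and at −0.76 for pralatrexate against baseline, where it no longer passed (FDR 0.17).

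DTYMK, thymidylate kinase, also lies on chromosome 2, at 241675747 to 241686944 on the minus strand. Its level was 6.34, 6.26 and 6.06 with pralatrexate, 6.43, 5.82 and 6.14 with vehicle and 8.66, 8.57 and 8.47 at baseline. The day 10 groups overlapped each other, and every day 10 library lay more than 2 log2 units under the lowest baseline library. DTYMK fell by 2.42 ± 1.23 in vehicle against baseline (SD over 4 sgRNAs; edgeR with rank aggregation, FDR 0.0033), to 0.187 of baseline. Only 5 of the 763 genes had a lower mean in that comparison. With pralatrexate it fell by 2.33 ± 1.54 against baseline (FDR 0.0044), to 0.199 of baseline, where it had the 3rd lowest mean. All 4 sgRNAs passed by themselves in both comparisons, with 4 of 4 lower.

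Among the DTYMK sgRNAs the third was lost furthest. It had 64, 80 and 58 reads with pralatrexate, 157, 94 and 95 reads with vehicle and 1763, 1781 and 1268 reads at baseline, and thus 17.2, 32.3 and 13.6 CPM, 48.7, 20.4 and 21.5 CPM, and 436, 407 and 368 CPM in the same groups. Its log2 fold change was −4.30 ± 0.31 for pralatrexate against baseline (SE), the 2nd lowest of the 3145 sgRNAs tested, and −3.76 ± 0.29 for vehicle against baseline, the 7th lowest. The fourth sgRNA stood at 76.8, 90.4 and 86.4 CPM with pralatrexate, 73.5, 59.6 and 67.3 CPM with vehicle and 486, 536 and 520.5 CPM at baseline, and it fell by 2.95 ± 0.17 in vehicle against baseline. The first fell by 2.07 ± 0.21 and the second by 0.90 ± 0.22 in vehicle against baseline. The second was uneven between libraries, with 281, 112 and 158 CPM with pralatrexate, 160, 152 and 158 CPM with vehicle and 360, 267 and 248 CPM at baseline. Its pralatrexate libraries overlapped baseline through pralatrexate 1. Without the strongest sgRNA DTYMK still passed in both comparisons, at −1.97 for vehicle (FDR 0.031) and −1.67 for pralatrexate (FDR 0.0403).

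**Figure D2:**
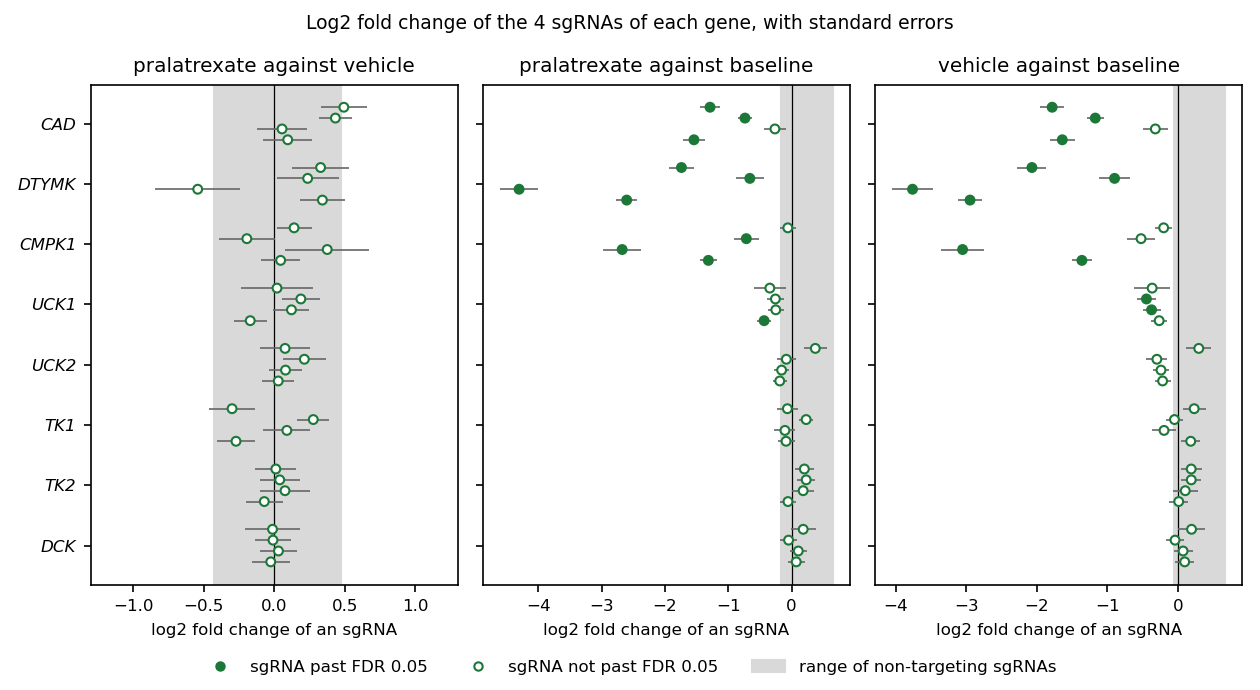
Log2 fold change of each of the 4 sgRNAs of a gene (points, in the order of the table from top to bottom) with its standard error (bars), for the 3 comparisons, with filled points for sgRNAs past FDR 0.05 and grey for the range of the 99 non-targeting sgRNAs; each panel has its own horizontal scale. All 4 DTYMK sgRNAs and 3 of 4 CAD sgRNAs are filled in both comparisons with baseline, and no point is filled for pralatrexate against vehicle.

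CMPK1, the UMP and CMP kinase, spans chromosome 1, 47333790 to 47394866, on the plus strand. Its level was 7.08, 7.13 and 7.22 with pralatrexate, 6.79, 7.10 and 7.20 with vehicle and 8.29, 8.42 and 8.32 at baseline. Both day 10 groups lay below baseline and overlapped each other. The gene mean was as low as that of CAD, at −1.28 ± 1.28 for vehicle against baseline, but it did not pass the rank aggregation (FDR 0.0831), and at −1.19 ± 1.11 for pralatrexate against baseline it did not pass either (FDR 0.096). The spread lay between sgRNAs, which stood at −0.20, −0.52, −3.05 and −1.36 in vehicle. The third had 31.2, 52.1 and 38.3 CPM with pralatrexate, 13.3, 35.0 and 43.5 CPM with vehicle and 270, 269.6 and 231 CPM at baseline. The first had 358, 423 and 538 CPM with pralatrexate, 400.3, 393 and 405 CPM with vehicle and 444, 474 and 459 CPM at baseline. The third and the fourth passed by themselves in both comparisons with baseline, and the second passed for pralatrexate against baseline, at −0.72 (FDR 0.0106), but not for vehicle against baseline, at −0.52 (FDR 0.0664).

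Tests on the total or the mean of its sgRNAs called CMPK1. edgeR on reads summed over the 4 sgRNAs gave −0.88 for vehicle against baseline (FDR 6.43e-14), where 20.6% of all genes passed as lower. limma on the gene level gave an FDR of 2.23e-09 and a 95% interval of −1.51 to −1.13, where 19.8% of all genes passed as lower. That interval reflects the spread between libraries and leaves out the spread between sgRNAs. For pralatrexate against baseline both tests called it as well, with FDRs of 1.05e-12 and 8.12e-09, where 21.2% and 19.9% of all genes passed as lower. In that comparison the rank aggregation called CMPK1 without pralatrexate 3 (−1.23, FDR 0.0471). Without its strongest sgRNA CMPK1 was at −0.69 for vehicle against baseline (rank aggregation, FDR 0.209). For pralatrexate against baseline it was then at −0.70 (FDR 0.45).

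The uridine and cytidine kinases differed from each other. UCK1 spans chromosome 9, 131523801 to 131531264, on the minus strand and overlaps POMT1 on the other strand. Its level was 7.73, 7.62 and 7.71 with pralatrexate, 7.63, 7.59 and 7.71 with vehicle and 7.99, 8.01 and 8.02 at baseline, with both day 10 groups below baseline. It was at −0.36 ± 0.07 for vehicle against baseline (FDR 0.108) and at −0.32 ± 0.09 for pralatrexate against baseline (FDR 0.12), with 4 of 4 sgRNAs lower in each. In vehicle the 4 sgRNAs stood at −0.36, −0.44, −0.37 and −0.26, the closest set of the 8 genes, and the second and the third passed by themselves (FDR 0.0201 and 0.0383). UCK1 passed as lower in edgeR on summed reads (−0.35, FDR 7.22e-05) and in limma (FDR 0.000345) for vehicle against baseline. Every sgRNA was lower in 17.4% of all genes for pralatrexate against baseline and in 17.3% for vehicle.

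UCK2 spans chromosome 1, 165827614 to 165911618, on the plus strand and overlaps TMCO1 on the other strand. Its level was 8.42, 8.46 and 8.41 with pralatrexate, 8.35, 8.18 and 8.46 with vehicle and 8.47, 8.53 and 8.37 at baseline, and all 3 groups overlapped. It was at −0.11 ± 0.28 for vehicle against baseline (FDR 0.409) and −0.01 ± 0.26 for pralatrexate against baseline (FDR 1), and leaving out 1 library gave −0.18 to −0.04 for vehicle. Scaled on the non-targeting sgRNAs UCK2 stood at −0.31 for pralatrexate and −0.43 for vehicle against baseline, and UCK1 at −0.61 and −0.67. Neither passed the rank aggregation with this scaling. That test orders each sgRNA among all sgRNAs, so a shift that all of them share does little to its calls. It therefore does not measure loss relative to the non-targeting sgRNAs. The UCK2 sgRNAs did not share a direction, as the first stood at 0.30 and the others at −0.30, −0.24 and −0.22 in vehicle. edgeR on summed reads, to which the more abundant sgRNAs contribute more, placed UCK2 at −0.17 for vehicle against baseline (FDR 0.0456), and limma gave an interval of −0.29 to 0.04 (FDR 0.26).

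None of the 3 deoxynucleoside kinases passed in any comparison. TK1 spans chromosome 17, 78174091 to 78187233, on the minus strand, and its level was 8.16, 8.21 and 8.13 with pralatrexate, 8.11, 8.23 and 8.31 with vehicle and 8.22, 8.17 and 8.15 at baseline. TK2 spans chromosome 16, 66508003 to 66552544, on the minus strand and overlaps a protein-coding gene without a symbol on the same strand. The TK2 level was 8.18, 8.21 and 8.10 with pralatrexate, 8.10, 8.18 and 8.21 with vehicle and 8.16, 7.91 and 8.03 at baseline. DCK spans chromosome 4, 70992538 to 71030914, on the plus strand, overlaps MOB1B on the same strand, and its level was 8.23, 8.44 and 8.25 with pralatrexate, 8.39, 8.26 and 8.26 with vehicle and 8.15, 8.31 and 8.24 at baseline. Groups overlapped for all 3 genes. For vehicle against baseline TK1 was at 0.04 ± 0.20, TK2 at 0.13 ± 0.08 and DCK at 0.08 ± 0.10 (FDR 1 for each). limma placed these differences between −0.11 and 0.18 for TK1, between −0.03 and 0.29 for TK2 and between −0.09 and 0.23 for DCK (95% intervals). Scaled on the non-targeting sgRNAs, the 3 genes stood at −0.27, −0.19 and −0.23, and none passed (rank aggregation, FDR 1 for each). Because the test ranks sgRNAs among all sgRNAs, this does not show whether they were lost relative to the non-targeting sgRNAs.

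The range of non-targeting sgRNAs gave a second yardstick for single sgRNAs. In vehicle against baseline they ran from −0.05 to 0.67. All 16 sgRNAs against CAD, DTYMK, CMPK1 and UCK1 lay below that range, as did 3 of 4 against UCK2 and 1 of 4 against TK1, while all 8 against TK2 and DCK lay within it. That made 20 of 32, or 62.5%, beside 40.7% of the 3046 targeting sgRNAs tested. For pralatrexate against baseline, where the range was −0.17 to 0.66, 16 of 32 lay below it, beside 27.7% of targeting sgRNAs. For pralatrexate against vehicle, where it was −0.43 to 0.47, 30 of 32 lay within it. The exceptions were the first CAD sgRNA above it, at 0.49 ± 0.16, and the third DTYMK sgRNA below it, at −0.54 ± 0.30 (SE; edgeR FDR 0.607 and 0.901).

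The comparison of pralatrexate with vehicle set the share of each knockout after 10 days under the antifolate beside its share in vehicle. Numbers of cell divisions in the groups are not given. A cost specific to the drug therefore cannot be told apart from unequal growth of the groups, and neither was tested. CAD had the highest value of the 8 genes, at 0.27 ± 0.23 (SD over 4 sgRNAs), or 1.20-fold, with 4 of 4 sgRNAs higher, and the 5th highest mean of all 763 genes. It ranked 1st among all genes in the higher direction of the rank aggregation and did not pass after adjustment over them (FDR 0.178). Same-numbered day 10 libraries, which deviated together, differed by 0.18, 0.35 and 0.27 in gene level, and the pralatrexate libraries lay above all vehicle libraries, as in 3.67% of all genes. edgeR on summed reads placed CAD at 0.30 with an FDR of 0.0169, the single gene of 763 (0.131%) that passed as higher in that test. limma, in which 1 other gene of the 763 passed as higher, did not call CAD (FDR 0.124), with an interval of 0.12 to 0.41.

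The CAD difference rested on its first 2 sgRNAs. They stood at 0.49 ± 0.16 and 0.43 ± 0.12 (SE), and the others at 0.05 ± 0.17 and 0.10 ± 0.17. None passed in edgeR, where the second had the lowest FDR of the 4, at 0.34, and the second passed in DESeq2 (0.44, FDR 0.034). On summed reads CAD no longer passed without the first sgRNA (0.26, FDR 0.243), without the second (0.20, FDR 0.846), without pralatrexate 1 (0.28, FDR 0.112), without vehicle 2 (0.28, FDR 0.0557) or without vehicle 3 (0.31, FDR 0.0617), and it passed with the replicate number as a block (FDR 0.0066). These repeats on summed reads were chosen after the values had been seen.

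DTYMK and the salvage kinases showed no difference past the test between pralatrexate and vehicle. DTYMK was at 0.09 ± 0.42 (FDR 0.874), with sgRNAs at 0.33, 0.24, −0.54 and 0.34, so that the sgRNA with the fewest reads was lower and the others higher. The limma interval for the DTYMK level was −0.16 to 0.34, which reflects the spread between libraries and leaves out that between sgRNAs. Same-numbered libraries differed by −0.09, 0.44 and −0.08 in DTYMK level, the middle value being that of replicate 2, and without vehicle 2 the gene was at −0.05. CMPK1 was at 0.09 ± 0.24, UCK1 at 0.04 ± 0.16 and UCK2 at 0.10 ± 0.08 (FDR 0.963 for each). Leaving out 1 library gave 0.013 to 0.18 for CMPK1, 0.017 to 0.081 for UCK1 and 0.029 to 0.17 for UCK2, and none passed. UCK2 had 4 of 4 sgRNAs higher, as did 6.55% of all genes. TK1, which makes dTMP from thymidine without a folate, was at −0.05 ± 0.28 (FDR 0.983). Its sgRNAs split, with the first at −0.30, the fourth at −0.27, the second at 0.28 and the third at 0.09. The second TK1 sgRNA stood at 467, 427 and 471 CPM with pralatrexate, 354, 357 and 416 CPM with vehicle and 372, 414 and 379.6 CPM at baseline, above both other groups in all pralatrexate libraries. The first TK1 sgRNA stood at 233, 311 and 190.4 CPM with pralatrexate, 334, 309.7 and 258 CPM with vehicle and 290.4, 240 and 237 CPM at baseline, with overlap between all groups. TK2 was at 0.01 ± 0.06 and DCK at −0.00 ± 0.02 (FDR 1 for each). limma intervals were −0.20 to 0.10 for TK1, −0.16 to 0.16 for TK2 and −0.16 to 0.17 for DCK.

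**Figure D3:**
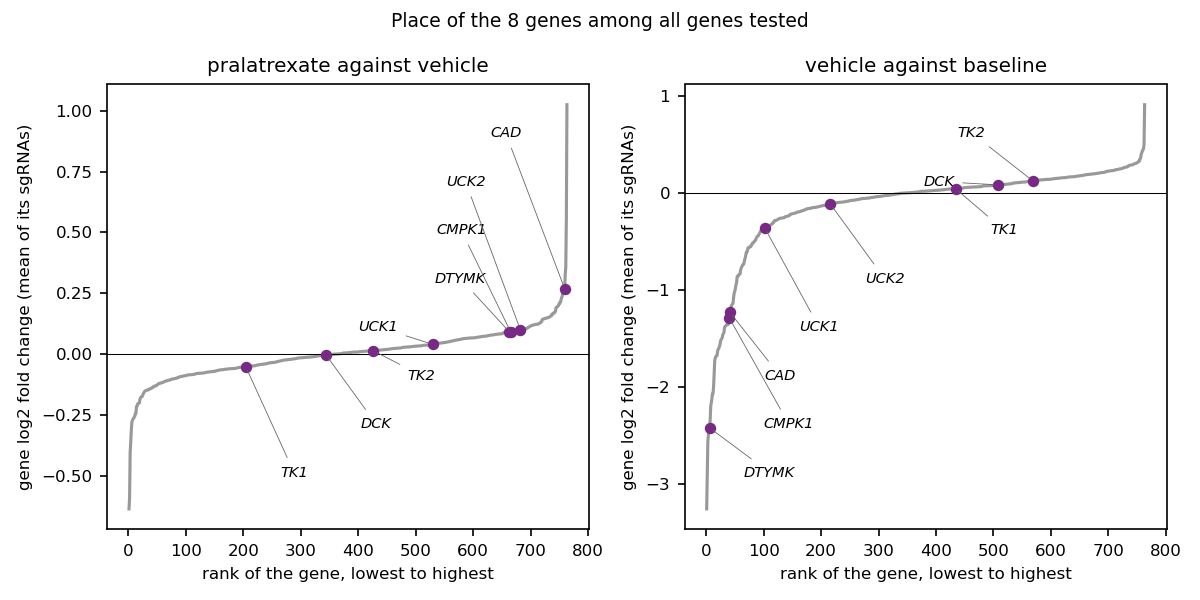
Gene log2 fold change (mean of a gene's sgRNAs) of all 763 genes in order of size (grey line) with the 8 genes marked (points), for pralatrexate against vehicle on the left and vehicle against baseline on the right, on separate vertical scales. CAD (0.27) lies near the upper end on the left, where the others lie between −0.05 and 0.10, and DTYMK (−2.42) lies near the lower end on the right.

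Over the 32 sgRNAs, 23 were higher with pralatrexate than with vehicle and 9 lower, while all targeting sgRNAs had a median of −0.0007. The sgRNAs of a gene share a target, so this split was not tested. The libraries of these groups did not overlap for 5 higher and 1 lower sgRNA, beside 4.36% and 4.61% of all sgRNAs. The higher ones were the first and second of CAD, the fourth of DTYMK, the third of UCK1 and the second of TK1, and the lower one was the fourth of UCK1. The median of the 8 genes was 0.07, beside 0.01 for all genes. On simulated counts for this comparison, the test recovered 88% of genes raised by 0.5 on the log2 scale and 78% of genes lowered by 0.5, and all of those changed by 1 (763 genes, 50 for each change, 563 unchanged). In the simulation all sgRNAs of a gene changed alike and all sgRNAs shared the same dispersion. The sgRNAs of a gene differed more in the data, and fewer genes passed, so these shares may overstate the recovery here. Changes of less than 0.5 were not simulated. The 8 genes lay between −0.05 and 0.27 in this comparison, so recovery at their sizes is not known.

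Levels across the 9 libraries sorted the genes into those that shared the loss after baseline and those that did not. Pearson's r between gene levels was 0.97 for CAD and DTYMK, 0.96 for CAD and CMPK1, 0.95 for CAD and UCK1 and 0.97 for CMPK1 and UCK1. It was 0.41 for CAD and UCK2, −0.18 for CAD and TK1, −0.63 for CAD and TK2 and −0.34 for CAD and DCK. The points are 9 libraries in 3 groups, so these values mostly describe the step between baseline and day 10. Among all other genes, those most like CAD were PLK4 (r = 0.99), CSK (0.98) and CSNK1A1 (0.98), and those most like DTYMK were DOLK (0.998), PAK2 (0.998) and CHEK1 (0.995), over the same 9 libraries. PLK4, a kinase of centriole duplication, was at 0.23 for pralatrexate against vehicle and −2.07 for vehicle against baseline.

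Other genes of nucleotide and folate metabolism were taken from a list of 36, of which 31 were found in the table. For vehicle against baseline 2 of 31 passed the rank aggregation as lower, against 6.68% of all genes, and 0 as higher, against 0.393%, with a median of 0.03. The lower genes were GUK1, the GMP kinase, at −2.16 on 3 sgRNAs (FDR 0.0033), and NME6, a member of the nucleoside diphosphate kinase family, at −1.03 (FDR 0.0054). The same 2 genes passed for pralatrexate against baseline, at −2.25 and −1.18, against 7.21% of all genes. On summed reads 3 of 31 passed as lower and 9 as higher for vehicle against baseline, against 20.6% and 17.2% of all genes, so the 0 above depends on the test. For pralatrexate against vehicle 1 of 31 passed the rank aggregation, against 0.524% of all genes as lower. It was NADK, which makes NADP from NAD, at −0.59 (FDR 0.0041), and the 31 genes ran from −0.59 to 0.12, below the 0.27 of CAD. The nearest relatives of the 8 genes among them did not pass the rank aggregation in any comparison. UCKL1, the uridine-cytidine kinase-like gene, was at 0.06 for pralatrexate against vehicle and −0.05 for vehicle against baseline. CMPK2, the mitochondrial nucleoside monophosphate kinase, was at 0.02 and 0.17, and DGUOK, the mitochondrial deoxyguanosine kinase, was at −0.01 and 0.26 in the same comparisons. On summed reads DGUOK passed as higher for pralatrexate against baseline (0.24, FDR 0.0165) and for vehicle against baseline (0.26, FDR 0.0089), and CMPK2 for pralatrexate against baseline (0.18, FDR 0.0262), all below the non-targeting medians of 0.34 and 0.31.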

How the data were processed

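The authors deposited raw read counts per sgRNA for 9 libraries, and the submitters' processing notes name Bowtie 1.0.0. For the counting program, its mismatch settings and the genome build the entry is "not given in the sources used here". No molecular identifiers are mentioned, and PCR copies therefore count as reads. Selection times follow the labels and the study's methods, while its results text gives a longer time. The authors also deposited gene tables of their own comparisons (a score, p-value, rank and log2 fold change per gene), which were not used. Files name sgRNAs without sequence, so cut sites were not placed, and gene spans come from GENCODE 44.

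sgRNAs with a mean under 30 reads over all libraries were removed (7 of 3152). The rest were fitted with edgeR 4.0.16 in R 4.3.3 (quasi-likelihood with TMM scaling, a term for group, all 9 libraries, sgRNA tests two-sided). For genes, all sgRNAs were ranked on their one-sided p-values, which were aggregated as in the study's program (alpha rank aggregation, sgRNAs with a p under 0.25), with each gene's p computed exactly from ordered uniform ranks and adjusted by Benjamini and Hochberg over 763 genes, apart for each direction. The log2 fold change of a gene averages those of its sgRNAs. CPM values are scaled by TMM. Alternatives used DESeq2 1.42.0, limma 3.58.1 on gene levels (prior count 2), summed reads, other scalings and filters, a replicate block, and single libraries or sgRNAs left out. Chi-square over its degrees of freedom was 10.7 to 25.7 for pairs of libraries within a group, so each pair differed by more than read sampling. This cannot tell separate cultures from separate preparations of the same culture. Deviations of same-numbered pralatrexate and vehicle libraries correlated at 0.17 to 0.20 and others at −0.13 to −0.05, so these numbers pair the libraries. For vehicle and baseline the same-numbered values were 0.02 to 0.07. The test was tried on simulated data. All 8 genes, and the other nucleotide genes, were named by rule, 3 like genes by the highest r were named for each gene called, and the genes and lists were chosen with earlier results of these data known.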

Additional observations from a re-analysis of the deposited data

How the results depend on the processing

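CAD and DTYMK passed as lower in vehicle and in pralatrexate against baseline under every alternative run, with the exception of CAD for pralatrexate against baseline without its strongest sgRNA. The members called numbered 5 on summed reads and 4 in limma for vehicle against baseline, 1 on summed reads for pralatrexate against vehicle, and 4 on summed reads, 4 in limma and 1 without the strongest sgRNAs for pralatrexate against baseline. Shares of all genes called in the same direction were, in this order, 20.6%, 19.8%, 0.131%, 21.2% and 19.9%. In the last setting 54 of 763 genes passed as lower. Leaving out 1 library gave 2 to 2, 0 to 0 and 2 to 3 members for vehicle against baseline, pralatrexate against vehicle and pralatrexate against baseline, and 8 to 12, 0 to 0 and 9 to 11 sgRNAs. In these runs 10.4% to 13.1%, 0.0318% to 0.0954% and 10.7% to 13.5% of all sgRNAs were called lower. Of the 763 genes, 49 to 56, 1 to 5 and 50 to 57 were called lower. With scaling on non-targeting sgRNAs the median over all genes was −0.30 for vehicle and −0.28 for pralatrexate against baseline, with 22 and 21 member sgRNAs called, all lower, where 41.5% and 37.9% of all sgRNAs were called lower. DESeq2 called 1 member sgRNA for pralatrexate against vehicle, where 0.0954% of all sgRNAs were called higher. With the replicate number as a block the paired fit called 2, 0 and 2 members and 11, 0 and 11 sgRNAs, put CAD at 0.27 for pralatrexate against vehicle (FDR 0.215), and changed no call of a member. That fit called 49, 5 and 55 of all genes and 13.8%, 0.0954% and 13.7% of all sgRNAs as lower.

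Values near 0 changed sign without passing. With non-targeting scaling TK1, TK2 and DCK were at −0.27, −0.19 and −0.23 for vehicle against baseline, DCK at 0.015 for pralatrexate against vehicle, and TK2 and DCK at −0.15 and −0.22 for pralatrexate against baseline. Without the strongest sgRNA TK1 was at −0.020 for vehicle against baseline. In the same setting CMPK1 was at −0.0033, UCK1 at −0.010, TK1 at 0.031, TK2 at −0.0074 and DCK at 0.0025 for pralatrexate against vehicle, and UCK2 at 0.044 and TK1 at 0.024 for pralatrexate against baseline. limma put DCK at 0.0031 for pralatrexate against vehicle, and summed reads put TK1 at 0.024 for pralatrexate against baseline. Leaving out 1 library gave −0.010 to 0.091 for TK1 in vehicle against baseline. For pralatrexate against vehicle it gave −0.052 to 0.26 for DTYMK, −0.10 to 0.0066 for TK1, −0.016 to 0.039 for TK2 and −0.072 to 0.047 for DCK. For pralatrexate against baseline it gave −0.057 to 0.024 for UCK2 and −0.033 to 0.014 for TK1. The cause of these changes was not tested.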
